A study of Mus musculus with 4 samples.

Results

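The genes described here are 7 cadherins and 3 catenins, chosen by name from the deposited table: Cdh1 (E-cadherin), Cdh2 (N-cadherin), Cdh3 (P-cadherin), Cdh5 (VE-cadherin), Cdh11 (OB-cadherin), Cdh13 (T-cadherin), Cdh23 (otocadherin), Ctnnb1 (β-catenin), Ctnna1 (α-catenin) and Ctnnd1 (p120-catenin). All 10 were among the 23875 genes listed. No measured value entered this choice, although earlier results of the same data were known when it was made.

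RNA was compared between ID8-P0 and ID8-PW2 cells. ID8-P0 is a mouse ovarian cancer line that arose by transformation of ovarian surface epithelium in culture. ID8-PW2 is a line recovered, after 2 in vivo passages, from a tumor of the peritoneal wall. Both lines are of C57BL/6 background and labelled wild type, and by the study's methods the parental line carries GFP and luciferase. Cells of both groups were held in suspension for 24 h on a coating that prevents attachment, and each group had 2 libraries, described as biological duplicates. ID8-PW2 is 1 derived line, so the spread between its libraries is not the spread between tumors. By the run names in the labels, lane 3 held both parental libraries, and lanes 4 and 8 held 1 library each of the passaged line, so lane and group cannot be told apart. RNA came from whole cultures, and a change in RNA per cell and a change in the share of cells with that RNA cannot be told apart either.

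Classical cadherins are membrane proteins that bind their like on a neighboring cell through calcium-dependent extracellular repeats. Their cytoplasmic tails hold p120-catenin, which keeps the cadherin at the surface, and β-catenin, which recruits α-catenin and through it the actin cytoskeleton. β-catenin that is not bound to cadherin is destroyed or, when Wnt signaling is on, acts with TCF factors in the nucleus. Ovarian surface epithelium is known for N-cadherin with little E-cadherin, whereas E-cadherin and P-cadherin often appear in ovarian carcinomas. VE-cadherin marks endothelium, T-cadherin is held by a lipid anchor and has no tail for catenins, and otocadherin forms the tip links of inner ear hair cells.

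Each gene's deposited values are the ratio of ID8-PW2 to ID8-P0 RNA (its fold change), a p-value from edgeR and a mean level over the 4 libraries, as counts scaled to a common library total (CPM). Levels in single libraries and library depths are not given here, because the 4 columns of counts carry names that match no sample label. The level in each group was estimated by splitting the mean level by the fold change. A standard error (SE) of the log2 fold change was worked back from the p-value. Spread among duplicates is given as the biological coefficient of variation (BCV), the square root of the deposited dispersion. Genes with an adjusted p below 0.01 were called higher when the fold change exceeded 1.2 and lower when it was below 0.83, and a gene with a mean of at least 1 CPM was taken as expressed.

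P-cadherin RNA was higher in ID8-PW2 while N-cadherin RNA, the most abundant per length of the 7 cadherins in both lines, was at nearly the same level in both. Of the 10 genes, 2 were called higher (Cdh3 and Ctnnb1) and 3 lower (Cdh23, Ctnna1 and Ctnnd1), where over all genes listed 7.97% were called higher, 6.14% lower and 14.1% in either direction. Among the 12214 expressed genes these shares were 14.4%, 11.7% and 26.2%, against 5 of the 7 genes of this group that were expressed. Cdh1 and Cdh2 were expressed and not called. Cdh5, Cdh11 and Cdh13 lay under 1 CPM. The median fold change was 1.02 over the 7 expressed genes and 1.0 over all expressed genes.

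**Figure D1:**
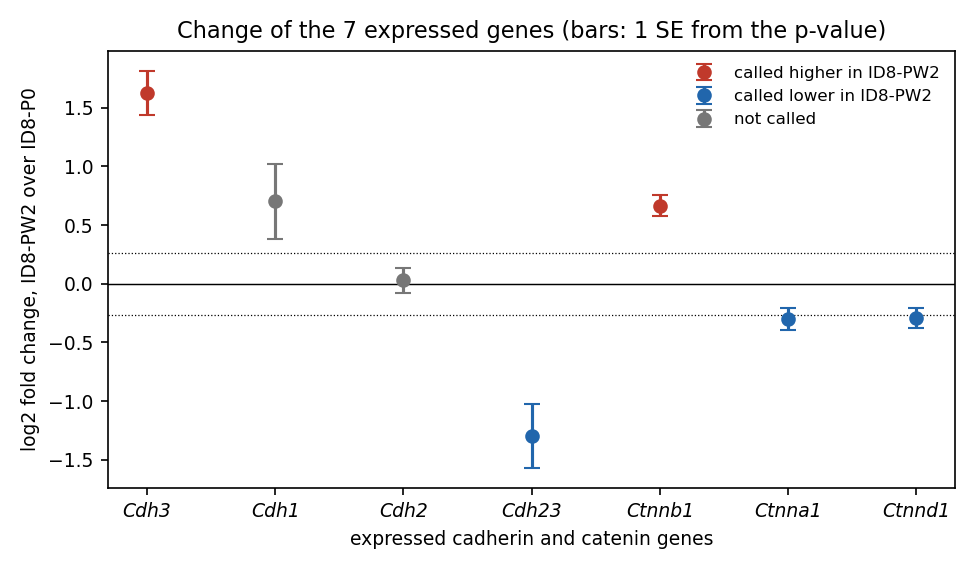
Log2 ratio of ID8-PW2 to ID8-P0 (vertical axis) for the 7 expressed cadherin and catenin genes, with bars of 1 SE derived from the deposited p-value. Dotted lines mark the fold limits of 1.2 and 0.83. Cdh3 stands highest at 1.63 and Cdh23 lowest at -1.30, while the bar of Cdh2 crosses 0.

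Cdh3 encodes P-cadherin, a classical cadherin of basal epithelial layers and placenta. Its gene (ENSMUSG00000061048) lies on the plus strand of chromosome 8 from 106510913 to 106556908. The estimated level was 7.99 CPM in ID8-P0 and 24.7 CPM in ID8-PW2, a fold change of 3.09 (log2 1.63, SE 0.19, adjusted p = 4.99e-16 from edgeR). Its BCV was 9.98%, close to the median of 9.98% over the 4404 genes within 2-fold of its level. Only 5.10% of expressed genes had a higher fold change, and Cdh3 ranked at 24 among the 671 expressed genes of chromosome 8.

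Cdh1 encodes E-cadherin, the cadherin that defines most epithelia. The gene (ENSMUSG00000000303) follows Cdh3 on the same strand, from 106603351 to 106670246, after a gap of 46442 bases. Its estimated level was 3.59 CPM in ID8-P0 and 5.84 CPM in ID8-PW2. These were the lowest CPM among the expressed genes of this group, with gene length not taken into account. The fold change of 1.63 (log2 0.70, SE 0.32) was not called (adjusted p = 0.117), and the 95% interval implied by the p-value ran from 1.06 to 2.50. Among the 2874 genes within 2-fold of the level of Cdh1, the smallest fold change called higher was 1.64, so a rise of the size estimated for Cdh1 was at the limit of what these libraries could call. A difference in fold change between Cdh3 and Cdh1 was not tested.

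Cdh2 encodes N-cadherin, the cadherin of mesenchymal and neural cells and of mesothelium, and lies on chromosome 18 (ENSMUSG00000024304, 16588877 to 16809246, minus strand). It stood at an estimated 83.3 CPM in ID8-P0 and 85.0 CPM in ID8-PW2, above 87.1% of expressed genes. The fold change was 1.02 (log2 0.03, SE 0.10, adjusted p = 1), with an implied 95% interval from 0.885 to 1.17. At that level a fold change of 1.24 or a ratio of 0.808 was the smallest shift called in either direction, over 2716 genes. The BCV of Cdh2 was 6.29%.

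Cdh23 encodes a large cadherin with many extracellular repeats and no binding site for catenins. The gene (ENSMUSG00000012819) occupies chromosome 10 from 60302748 to 60696490 on the minus strand. From 18.5 CPM in ID8-P0 its level fell to 7.52 CPM in ID8-PW2, a ratio of 0.407 (log2 -1.30, SE 0.27, adjusted p = 2.76e-05 from edgeR). Its implied 95% interval was 0.281 to 0.589, and 1.96% of expressed genes had a lower ratio. The duplicates spread widely, with a BCV of 16.6% that exceeded that of 96.2% of genes within 2-fold of its level. The listed genes that overlap Cdh23 on the opposite strand stood at 0.494 CPM (4632428N05Rik) and 0.163 CPM (Gm17455).

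Cdh5, Cdh11 and Cdh13 were close to the lowest level of the table, 0.163 CPM, which 4561 genes shared. Cdh11, a cadherin of mesenchymal and bone-forming cells, had a mean of 0.452 CPM and a fold change of 0.546 (adjusted p = 0.986). Cdh13 had 0.223 CPM and 11.3 (adjusted p = 0.705), and Cdh5 had 0.183 CPM and 4.41 (adjusted p = 1). For Cdh13 and Cdh5 the estimated ID8-P0 level lay under the table's lowest level, so these fold changes rest on the small count that edgeR adds and bound nothing. Of the 10331 genes within 2-fold of the level of Cdh13, 0 were called higher by edgeR and 1 lower (230 at an unadjusted p under 0.05), and of the 9811 such genes for Cdh5, 0 were called in either direction (111 at an unadjusted p under 0.05). Around Cdh11, where 3586 genes lay within 2-fold, the smallest fold change called higher was 5.18 and the largest ratio called lower 0.209. A change in these 3 genes was therefore not detectable at this depth unless very large.

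**Figure D2:**
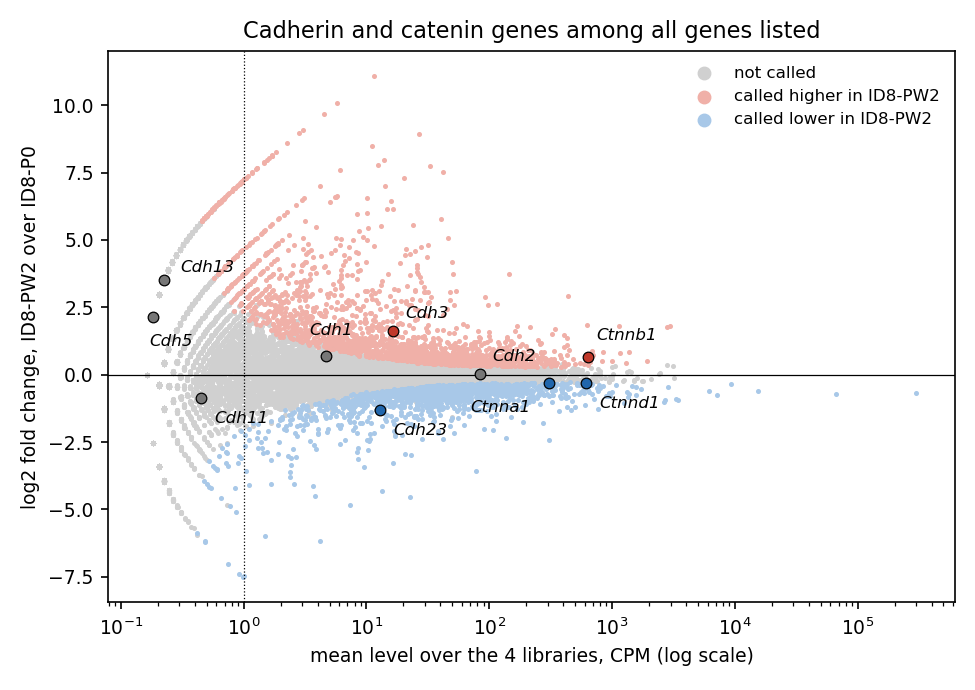
Mean level in CPM over the 4 libraries (horizontal axis, log scale) against the log2 ratio of ID8-PW2 to ID8-P0, 1 point per gene for the 23875 genes listed, with the 10 cadherin and catenin genes outlined and the level of 1 CPM dotted. The catenins sit at the right, from 309 to 641 CPM, and Cdh5, Cdh11 and Cdh13 at the left among genes that were rarely called.

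The catenins were among the most abundant RNAs of both lines. Ctnnb1, Ctnnd1 and Ctnna1 had mean levels of 641, 619 and 309 CPM and ranked at 95, 101 and 262 of the expressed genes. All 3 were called, 1 higher and 2 lower, at a level where calls were common: of the genes within 2-fold of the level of Ctnnb1, Ctnna1 and Ctnnd1, 53.3%, 47.2% and 52.9% were called in either direction. Their BCVs were alike, at 5.98% for Ctnnb1, 6.02% for Ctnna1 and 5.81% for Ctnnd1.

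Ctnnb1, both junction protein and Wnt effector (ENSMUSG00000006932, chromosome 9, 120929216 to 120960507, plus strand), rose from an estimated 496 to 786 CPM. Its fold change was 1.59 (log2 0.66, SE 0.09, implied 95% interval 1.41 to 1.79, adjusted p = 2.00e-12 from edgeR). Ulk4 overlaps it on the opposite strand at 3.36 CPM, far under the level of Ctnnb1. Libraries and mapping kept the strand of each read, but whether counting used it is not given in the sources used here.

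Ctnna1, the actin-linking α-catenin (ENSMUSG00000037815, chromosome 18, 35118888 to 35254773, plus strand), went from an estimated 341 to 277 CPM, a ratio of 0.812 (log2 -0.30, SE 0.09, adjusted p = 0.00637). Ctnnd1, p120-catenin (ENSMUSG00000034101, chromosome 2, 84600071 to 84650765, minus strand), went from 681 to 556 CPM, a ratio of 0.815 (log2 -0.29, SE 0.09, adjusted p = 0.00455). Both ratios lie just under the limit of 0.83, and the call of both was lost under 2 of 3 other scalings of the levels. The summed levels of the groups, as split from the deposited values, are unequal, at 1108689 CPM in ID8-P0 and 911764 CPM in ID8-PW2. The most abundant RNA, Gm26924, holds 29.7% of the mean CPM and had a ratio of 0.624. Setting the sums of all genes equal, an alternative chosen after seeing the data, shifts every log2 fold change up by 0.28 and gives 0.987 for Ctnna1 and 0.991 for Ctnnd1. Leaving Gm26924 out of the sums shifts them by 0.12 and gives 0.881 and 0.885. Setting the median of expressed genes to no change shifts them by -0.01 and gives 0.808 and 0.812, with both calls kept. Under the first and the second of these scalings Ctnnb1 reached 1.93 and 1.72, Cdh3 3.76 and 3.35, Cdh23 0.494 and 0.441, and Cdh2 1.24 and 1.11.

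Ratios between genes do not depend on this scaling. The ratio of Ctnnb1 to Ctnna1, on levels per kb of exon, was estimated at 1.8 in ID8-P0 and 3.51 in ID8-PW2, a change of 1.95-fold. Ctnnb1 to Ctnnd1 went from 1.03 to 1.99, a change of 1.94-fold. Ctnnd1 to Ctnna1 stayed at 1.75 and 1.76. β-catenin RNA was thus estimated higher relative to both of its partners in the junction, and the partners kept their proportion. These ratios carry no test of their own.

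Per kb of exon, the expressed genes among the 7 cadherins ranked in ID8-P0 as Cdh2 (10.3 CPM per kb), Cdh3 (1.82), Cdh23 (1.09) and Cdh1 (0.785). In ID8-PW2 the order was Cdh2 (10.5), Cdh3 (5.63), Cdh1 (1.28) and Cdh23 (0.444). The last 2 places therefore changed hands, although the estimates of Cdh1 and Cdh23 carry the widest errors of the group. Of the summed level of the 7 cadherins per kb, Cdh2 made up an estimated 73.2% in ID8-P0 and 58.4% in ID8-PW2. Cdh3 made up 12.9% and 31.2%, and Cdh1 5.56% and 7.08%. Cdh2 exceeded Cdh3 by 5.67-fold in ID8-P0 and by 1.87-fold in ID8-PW2. Cdh2 exceeded Cdh1 by 13.2-fold and 8.25-fold, so Cdh1 remained the minor partner on this scale in both lines.

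**Figure D3:**
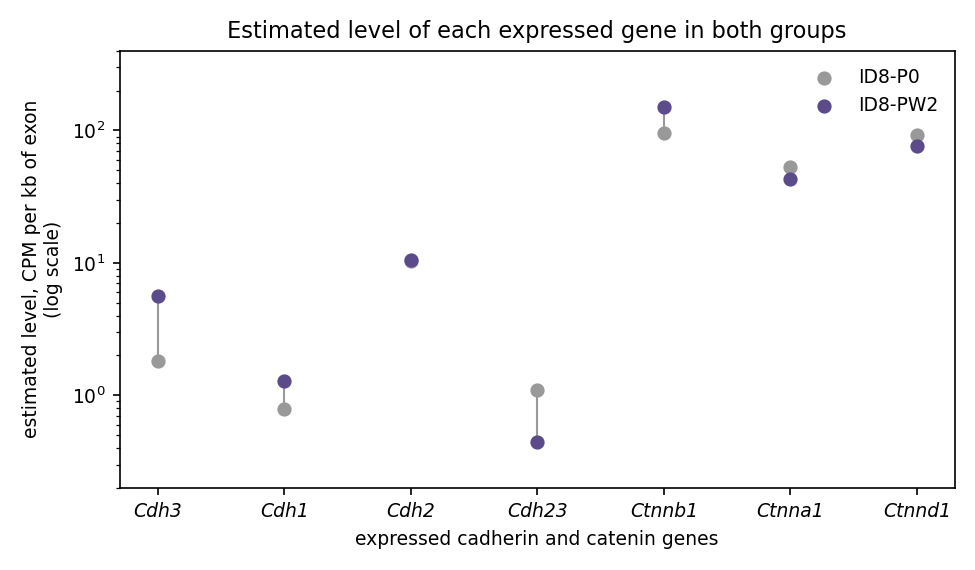
Estimated level in CPM per kb of exon (vertical axis, log scale) of the 7 expressed cadherin and catenin genes in ID8-P0 (gray) and ID8-PW2 (purple), from the deposited mean level and fold change, with no error bars. The catenins lie between 43.1 and 151 CPM per kb, and the cadherins between 0.444 and 10.5.

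The summed catenin level per kb was 242 in ID8-P0 and 270 in ID8-PW2, and that of the 7 cadherins 14.1 and 18. In both lines each of the 3 catenins therefore exceeded all 7 cadherins together at the RNA level. Other catenin-binding proteins share these partners, and protein was not measured here.

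Windows of 300 bases around RefSeq start sites are printed for called genes where a match was found. Each runs from 250 bases before to 50 bases after the start, 5′ to 3′ on the gene's strand, in build GRCm38.p6. Ctnnb1 and Ctnnd1 had 2 windows each, and the window nearest the deposited 5′ end of the gene is printed. Any link between these sequences and the changes in RNA was not tested. Windows were matched by symbol for 3 of the 8 genes looked up: Ctnnb1 (chr9:120933150-120933449, plus strand), Ctnnd1 (chr2:84650691-84650990, minus strand) and Cdh23 (chr10:60696441-60696740, minus strand). Capitals mark the GC box GGGCGG, the CCAAT box CCAAT and the TATA box TATAAA, searched on both strands, and the E-box CANNTG, which reads alike on both strands. The start in the window lies 0 bases from the deposited 5′ end for Cdh23, 25 for Ctnnd1 and 4184 for Ctnnb1, whose deposited gene begins upstream of it.

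Ctnnb1: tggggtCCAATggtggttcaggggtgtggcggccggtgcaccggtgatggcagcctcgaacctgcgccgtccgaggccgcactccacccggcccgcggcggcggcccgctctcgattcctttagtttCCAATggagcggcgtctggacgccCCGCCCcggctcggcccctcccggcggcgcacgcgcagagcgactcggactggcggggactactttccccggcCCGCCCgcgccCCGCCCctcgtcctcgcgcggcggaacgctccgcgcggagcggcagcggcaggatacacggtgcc

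Ctnnd1: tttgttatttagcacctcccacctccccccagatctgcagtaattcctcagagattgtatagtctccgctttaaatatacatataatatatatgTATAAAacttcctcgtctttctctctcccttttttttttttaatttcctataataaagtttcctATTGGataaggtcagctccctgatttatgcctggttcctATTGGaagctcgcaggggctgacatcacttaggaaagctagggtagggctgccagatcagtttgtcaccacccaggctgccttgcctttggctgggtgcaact

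Cdh23: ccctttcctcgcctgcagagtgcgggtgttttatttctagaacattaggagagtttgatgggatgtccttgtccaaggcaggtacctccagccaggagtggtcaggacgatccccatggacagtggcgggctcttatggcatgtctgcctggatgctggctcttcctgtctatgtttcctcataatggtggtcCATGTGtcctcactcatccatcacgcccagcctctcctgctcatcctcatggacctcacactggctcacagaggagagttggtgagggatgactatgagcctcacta

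The Ctnnb1 window held 3 GC boxes, 2 CCAAT boxes and no E-box, with 75.3% G and C, more than 96.4% of the 32851 windows. The Ctnnd1 window held 2 CCAAT boxes, 1 TATA box and no GC box, at 42.7% G and C. The Cdh23 window held 1 E-box only, at 54.0%. Over all windows, 35.7% hold a GC box, 37.4% a CCAAT box, 13.6% a TATA box and 72.3% an E-box. These are matches of letters and say nothing of what binds there.

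Cdh3 and Cdh1 lie close together, with 2 listed genes between them, and their neighbors were examined on the same scale. Gm10073, which lies between them, had a ratio of 0.719 at a mean of 1.68 CPM and was not called. Within 1 Mb of either gene, 43 other expressed genes were listed, of which 0 were called higher by edgeR (1 at an unadjusted p under 0.05) and 9 lower. Their median fold change was 0.839 and their highest 1.29, for Zfp90, a zinc finger gene, which was not called (adjusted p = 0.388). Cdh3 and Cdh1 thus had the 2 highest fold changes of this stretch. Over chromosome 8, 58 of 671 expressed genes were called higher and 88 lower, with a median of 0.942. Of the 7 cadherins, 5 lie on chromosome 8, and Cdh3 was the only one of these called.

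**Figure D4:**
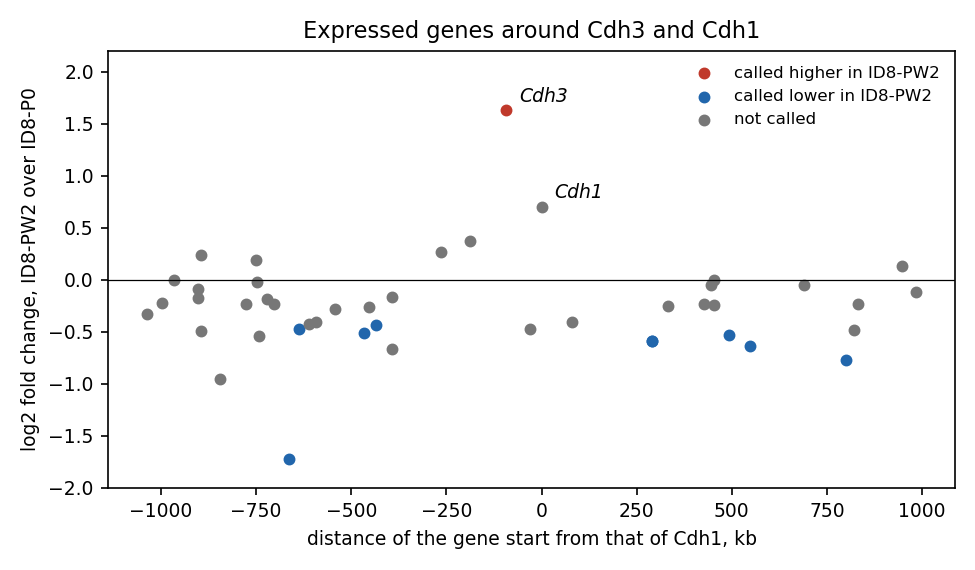
Log2 ratio of ID8-PW2 to ID8-P0 (vertical axis) for the expressed genes within 1 Mb of Cdh3 or Cdh1, placed by the distance of their start from that of Cdh1 in kb. Cdh3 at 1.63 and Cdh1 at 0.70 lie above the 43 other genes, none of which was called higher.

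For the other called genes, the median fold change of the chromosome ran from 0.860 to 1.03. On chromosome 2, where Ctnnd1 lies, 188 of 975 expressed genes were called lower and 76 higher, with a median of 0.860, so the ratio of 0.815 for Ctnnd1 was near that of its chromosome. On chromosome 18, with Ctnna1, the median was 0.933, with 53 genes lower and 26 higher of 297. On chromosome 10, with Cdh23, it was 0.907, and on chromosome 9, with Ctnnb1, 1.03. The part of the chromosome in these changes was not tested.

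Most other cadherins were barely detected. Of 13 further classical cadherins, 1 was expressed, Cdh24, and it was not called (ratio 0.630, adjusted p = 0.310, mean 2.95 CPM). Among 20 further members of the superfamily found in the table, 7 were expressed, of which 1 was called higher and 3 lower, with a median of 0.685. Fat1, a giant cadherin that regulates actin at cell contacts and Hippo signaling, went from an estimated 222 to 103 CPM, a ratio of 0.464 (adjusted p = 3.34e-29 from edgeR). Clstn1, a calsyntenin that links cargo to kinesin, had 0.685 (adjusted p = 5.09e-05) and Celsr3, a cadherin of planar polarity, 0.395 (adjusted p = 0.00194). Cdhr1, a photoreceptor cadherin, was higher at a mean of 1.64 CPM (adjusted p = 3.14e-10), but its estimated ID8-P0 level of 0.0703 CPM was under the table's lowest. Of 6 expressed protocadherins outside the clusters, 0 were called higher by edgeR (1 at an unadjusted p under 0.05) and 1 lower, Pcdh17, from 15.8 to 5.28 CPM (ratio 0.334, adjusted p = 5.04e-12). At 54.6 and 42.9 CPM, Pcdh7 was not called (ratio 0.785, adjusted p = 0.0212).

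Of 6 other expressed catenins and relatives, 1 was higher and 1 lower, with a median of 0.744. Jup (plakoglobin), the most abundant of the 6 at a mean of 207 CPM, had 0.997 and was not called. Ctnnal1 (α-catulin), a relative of α-catenin and vinculin, stood at 1.56-fold (adjusted p = 1.87e-08), and Pkp4, a p120-related protein of junctions, 0.531 (adjusted p = 2.11e-12). Nectins and afadin, a second adhesion system of the same junctions, held 0 genes called by edgeR of 4 expressed (1 at an unadjusted p under 0.05). Mllt4 (afadin) had 0.848 (adjusted p = 0.0622) and Pvrl2 (nectin-2) 0.981 (adjusted p = 1).

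Over the 11 related lists, 79 distinct genes were expressed, of which 7 were called higher and 17 lower (8.86% and 21.5%, against 14.4% and 11.7% of expressed genes), with a median of 0.914. These lists were described and not tested, and the shares were not matched for level. Of the 2716 genes within 2-fold of the level of Cdh2, 430 were called higher and 487 lower. With all sums set equal, 12 of these genes stayed below the limit for a lower call and 7 above that for a higher call, against 1008 and 1761 of all expressed genes, with the deposited p-values kept. Without Gm26924 in the sums, 16 stayed below. Actn1 lost its call under both. Of 13 genes that tie adherens junctions to actin, 1 was higher and 3 lower. Pdlim1, which binds α-actinin, rose from an estimated 2.60 to 22.6 CPM (8.69-fold, adjusted p = 4.07e-28). Shroom3, which drives apical constriction, had 0.504 (adjusted p = 9.44e-18), Ajuba, a LIM protein that binds α-catenin, 0.575 (adjusted p = 5.89e-06), and Actn1, an α-actinin, 0.808 (adjusted p = 0.00848).

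Phosphatases and kinases of the complex included 5 lower and 0 higher genes of 12 by edgeR (6 lower and 0 higher at an unadjusted p under 0.05). The lower genes were tyrosine phosphatases, among them the receptor types Ptprf (0.662, adjusted p = 5.60e-08), Ptprj (0.693, adjusted p = 1.14e-06), Ptprm (0.499, adjusted p = 2.31e-06) and Ptprk (0.697, adjusted p = 5.46e-06). Of 12 expressed genes of cadherin turnover and shedding, 1 was higher and 3 lower. Adam17, a sheddase, had 1.30 (adjusted p = 0.00755), while Arf6, a GTPase of endocytosis, had 0.708 (adjusted p = 1.11e-05), Pip5k1c, a lipid kinase, 0.604 (adjusted p = 0.000378), and Psen2, a γ-secretase subunit, 0.582 (adjusted p = 0.00205).

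Of 10 expressed genes of the β-catenin destruction complex, 1 was higher and 1 lower, with a median of 0.967. Gsk3b, the kinase that marks β-catenin for destruction, had 1.35 (adjusted p = 6.39e-05), and Fbxw11, a ubiquitin ligase subunit that recognizes the marked protein, 0.656 (adjusted p = 3.38e-07). Among 6 expressed repressors of cadherin genes, Snai2 (Slug), known to repress E-cadherin, was called higher, to an estimated 6.66 CPM in ID8-PW2 (2.22-fold, adjusted p = 0.00301), and 0 were called lower by edgeR (0 at an unadjusted p under 0.05). The corepressor Ctbp1 had 1.09 (adjusted p = 0.718). Of the known tip-link partners of Cdh23, 2 were expressed. Myo7a, the motor myosin of hair cell bundles, went opposite to Cdh23, from 78.7 to 244 CPM (3.10-fold, adjusted p = 1.76e-40), and Whrn (whirlin) had 2.53 (adjusted p = 0.0370) and was not called.

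**Figure D5:**
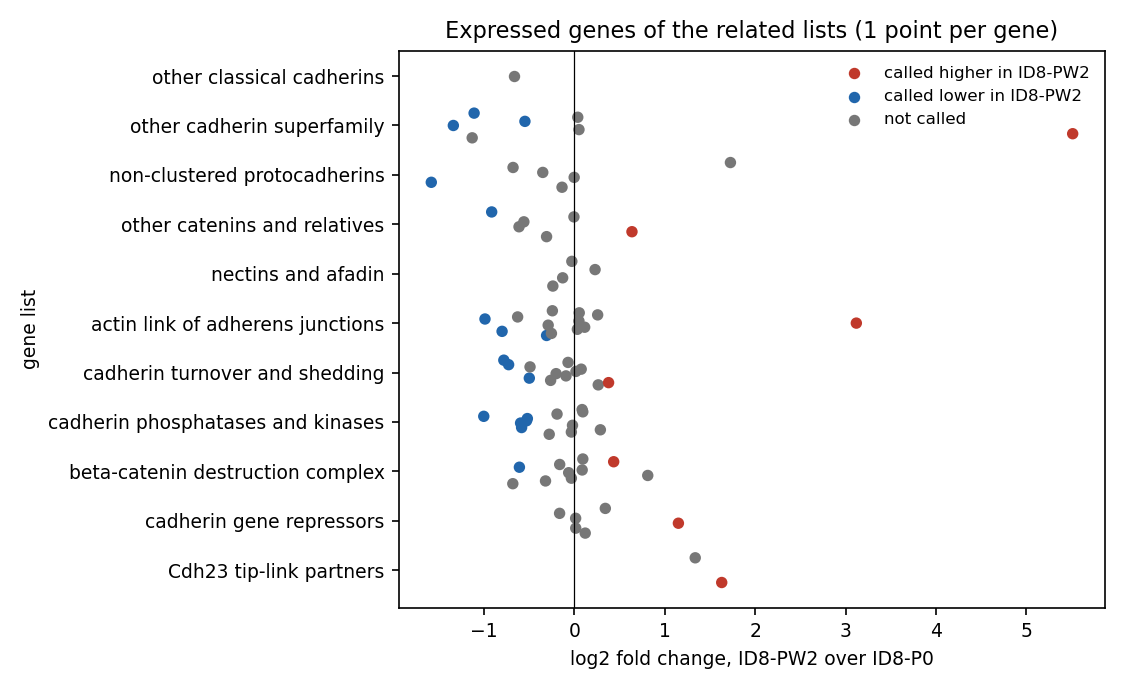
Log2 ratio of ID8-PW2 to ID8-P0 (horizontal axis) for the expressed genes of 11 lists related to cadherins and catenins, 1 point per gene, colored by call. Of 79 distinct genes, 17 are called lower and 7 higher on the deposited scale.

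Markers of the labelled cell type were present in both lines. Most endothelial and leukocyte markers lay under 1 CPM, while 6 of 10 mural and fibroblast markers were expressed. All 10 markers of ovarian surface and mesothelium were expressed. Their summed level was 2283 CPM in ID8-P0 and 2384 CPM in ID8-PW2, with Wt1, a transcription factor of mesothelium, at 152 and 153 CPM. Most of both sums came from the keratins Krt19 (1016 and 861 CPM), Krt18 (432 and 570 CPM) and Krt8 (378 and 492 CPM). Of the 10 markers, 3 were called higher, among them Krt8 (1.30, adjusted p = 0.000109) and Upk3b (1.67, adjusted p = 1.00e-10), and 2 lower, Msln (0.628, adjusted p = 1.07e-09) and Upk1b (0.440, adjusted p = 7.00e-15).

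Of 10 endothelial markers, 3 were expressed and all 3 were called higher. Pecam1 had 16.3 (adjusted p = 1.69e-15), Vwf 6.91 (adjusted p = 7.22e-10) and Esam 1.67 (adjusted p = 1.81e-07). Cldn5 and Emcn stood at the table's lowest level, as Cdh5 nearly did, and the summed level of the list was 37.5 CPM in ID8-P0 and 74.2 CPM in ID8-PW2. Of 10 leukocyte markers, Cd68 (5.44, adjusted p = 2.27e-26) and Csf1r (28.9, adjusted p = 1.47e-10, with an estimated ID8-P0 level under the table's lowest) were called higher, Lyz2 and Cd52 stood at the lowest level, and the sum was 6.40 and 28.0 CPM. Among mural and fibroblast markers, 3 of 6 expressed genes were called higher, Pdgfra (5.57, adjusted p = 1.02e-16), Des (9.14, adjusted p = 0.000168) and Dcn (1.25, adjusted p = 0.00273). Lum stood at the lowest level, and the sum was 294 and 379 CPM, of which Dcn held an estimated 285 and 354 CPM. The part of other cells in the rise of Cdh3 or Ctnnb1 was not tested.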

How the data were processed

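RNA from 2 ID8-P0 and 2 ID8-PW2 libraries was measured by stranded RNA-seq. Per the submitters' processing notes and the study's methods, the authors used CASAVA 1.8.2, Trimmomatic 0.22, fastx_clipper, TopHat2 2.0.6 and Bowtie2 2.0.2 on the mouse genome, counted reads per gene with their own scripts and compared the groups with edgeR 3.20.8, whose test and filter are not given in the sources used here. A human build stands in those notes, although all identifiers used here are of mouse genes. All 10 genes were found by identifier in GENCODE M21 (GRCm38), 7 with the same start or end.

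In the deposited columns, fold change is a linear ratio, given also as its log2. The mean level is a log2 CPM, the dispersion is a score that edgeR estimated, and the p-value and FDR are the authors' own. These columns hold the authors' comparison and were used since the 4 columns of counts match no sample label and were used in no step. So the test fixed for counts was not run, no model was fitted, depth per library is unknown, and p-values measure only the spread between duplicates. The FDR equaled the Benjamini-Hochberg adjustment over all 23875 genes, within a tolerance of 1e-06.

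Group levels are the mean level split by the fold change. The SE is the log2 fold change over the normal deviate of the p-value, and the 95% interval follows from it. Exon lengths are unions of GENCODE M21 exons. The genes, and the lists of related and marker genes, were chosen with earlier results of these data known. All 10 genes are named, and per list up to 4 called genes by adjusted p, filled to 2 by level. Zfp90, Gm10073, Jup, Wt1, Krt18 and Krt19 were named after their values were seen. So were the markers at the lowest level and the genes overlapping Cdh23 and Ctnnb1. Alternatives were other thresholds, filters, the Benjamini-Yekutieli adjustment and 3 rescalings. Computing used Python 3.11.15, numpy 2.4.6, pandas 2.3.3, scipy 1.17.1 and matplotlib 3.10.9, and the calls and SEs were tested on simulated data.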

Additional observations from a re-analysis of the deposited data

How the results depend on the processing

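Cdh3 and Cdh23 kept their calls under every alternative run. With fold limits of 2 and 0.5, 1069 genes were higher and 408 lower and 2 of the 10 genes were called, so that Ctnnb1 (adjusted p = 2.00e-12), Ctnna1 (adjusted p = 0.00637) and Ctnnd1 (adjusted p = 0.00455) dropped out by size alone. With the Benjamini-Yekutieli adjustment, 3 of the 10 genes were called, and Ctnna1 (adjusted p = 0.0679) and Ctnnd1 (adjusted p = 0.0485) were not. With equal summed levels, the ratio was 0.987 for Ctnna1 and 0.991 for Ctnnd1, and without Gm26924 in the sums 0.881 and 0.885, all past the limit of 0.83, while with the median of expressed genes set to no change they were 0.808 and 0.812 and both calls were kept; p-values could not be made again for these rescalings, which were chosen after seeing the data. At an adjusted p under 0.05, 12 of the 79 expressed genes of the related lists were higher and 24 lower. Over all 23875 genes listed, expressed or not, 2507 were higher and 2017 lower at this threshold. No alternative reversed a called direction. No paired analysis was possible because the columns of counts carry no replicate number or sample name, and for the same reason leaving out libraries, DESeq2 and other count normalizations were not run.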
